A study of Mus musculus with 4 samples.

Results

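The genes described here make nucleotides and the serine and one-carbon units that feed them, and they were chosen by name as 38 enzymes of these pathways. Probe sets that carried 1 of these symbols alone on the array annotation were taken, and the brightest probe set over the 4 arrays stood for its gene. By this rule 37 of the 38 genes were measured, out of 18193 genes with such a probe set, and Impdh2 was not analysed here. All 37 lay above the filter on dim probe sets and were tested among 12378 genes. The question was which steps of nucleotide supply differ in RNA level between leukemic marrow and mature myeloid cells, and by how much.

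The RNA came from bone marrow of C57BL/6J mice in 2 groups of 2 arrays, and the design text calls the arrays of a group biological replicates. The first group, labelled MN1 leukemic, is marrow of mice with leukemia driven by MN1, a transcriptional coactivator gene of acute myeloid leukemia. Per the labels' protocols, donors received 150 mg of 5-fluorouracil per kg at 4 days before marrow harvest. Their cells were stimulated for 48 hours with human interleukin-6, murine interleukin-3 and murine stem cell factor. MN1 then entered the cells by coculture with irradiated GP+E86 virus producer cells, and GFP-positive cells were sorted. The cells were given by tail vein to syngeneic recipients after 750 cGy of total-body irradiation, together with fresh syngeneic marrow cells that keep the host alive. Leukemic marrow may therefore hold unmarked host and helper cells, and the labels name no sort of it before RNA extraction. The second group, labelled Gr1/Mac1, is mature myeloid marrow cells positive for Gr1 and CD11b from healthy mice. Immature cells of healthy marrow were not analysed here, so leukemia and immaturity cannot be told apart. In such bulk samples, fewer cells of a type and less RNA per cell cannot be told apart either.

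As background, a purine ring is built stepwise on phosphoribosyl pyrophosphate, and a pyrimidine ring is built first and then joined to it. Both take carbon or nitrogen from amino acids. Serine, made from a glycolytic intermediate, gives its side carbon to folate, and folate carries that carbon into the purine ring and into thymidylate. Dividing marrow cells draw on these routes for DNA and RNA, and MYC, E2F and ATF4 proteins are known regulators of many of the genes.

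The deposited values were MAS5 signals, which are linear intensities of a probe set. Each array's trimmed mean signal lay at 500.003 or 500.004, so each had been brought to 1 target, and median signals ran from 59.12 to 85.35. The ratio of 3′ to 5′ signal of the actin control, a sign of RNA length, was 3.275 and 3.094 in leukemia and 1.324 and 1.387 in the mature arrays. The geometric mean of the hybridization controls was 11920 and 8950 in leukemia and 4044 and 4167 in the mature arrays. These are spikes added before hybridization. Scaling each group to those spikes instead moved the median log2 fold change of all tested genes from 0.28 to -0.95, and where this changes the call of a synthesis gene or of a named neighbour it is given beside it. Under that scaling 8.75% of all tested genes were called higher and 48.0% lower. One mature array stood apart in sex-linked genes. Its signal of Eif2s3y, on the Y chromosome, was 4409, against 2.513 to 3.01 on the other arrays, and its Xist signal was 114.5 against 7138 to 19640. The part of RNA length, scaling and sex in the results was not tested.

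The promoters of the genes are shown first. RefSeq windows of build GRCm38.p6, from 250 bases before to 50 after a transcript start, were found for 35 of the 37 measured genes, all but Dhodh and Pfas. Motifs were searched on both strands, and a gene counted once if any of its windows held the letters. CACGTG, the E-box that MYC and MAX bind, was present in 5 of the 35 genes (14.3%), against 11.5% of the 10060 tested genes with a window and 8.09% of all 27025 genes of the table. Among tested genes called higher, 13.4% held it. Each of the 5 genes, Atic, Dtymk, Tyms, Paics and Nme1, was called higher in leukemia with the scaling as deposited, as were 26 of all 35 genes. All measured genes with a match are shown, with the E-box in capitals:
Atic, chr1:71557137-71557166, plus strand: ggacctcggggtCACGTGgggtcgacacgc
Dtymk, chr1:93802065-93802094, minus strand: gtctcgaacttcCACGTGaccagagcctgc
Tyms, chr5:30073669-30073698, minus strand: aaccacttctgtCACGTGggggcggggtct
Paics, chr5:76951087-76951116, plus strand: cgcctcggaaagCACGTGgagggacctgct
Nme1, chr11:93968273-93968302, minus strand: gctgcggggaacCACGTGaggccggggagc
Nme1, second start, chr11:93968037-93968066, minus strand: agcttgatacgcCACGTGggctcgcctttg
The Paics window lies within the annotated Ppat gene, because both genes start head to head on opposite strands of chromosome 5. Nme1 carried the E-box near each of 2 annotated starts.

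The letters GGCGGGA, an E2F motif, were present in 15 of the 35 genes (42.9%), against 23.0% of the tested genes with a window, 23.6% of tested genes called higher and 12.7% of all genes. CCAAT, bound by NF-Y, was present in 15 of the 35 (42.9%), against 42.5% of the tested genes. TGATGNAA, a composite element of ATF4 and C/EBP, was present in Prps1 alone (2.86%), against 2.85% of the tested genes. The bases directly before the start are shown for the members with the largest rise and fall by the brightest probe sets, Phgdh and Samhd1, with CCAAT in capitals where it occurs:
Phgdh, chr3:98339970-98340119, minus strand: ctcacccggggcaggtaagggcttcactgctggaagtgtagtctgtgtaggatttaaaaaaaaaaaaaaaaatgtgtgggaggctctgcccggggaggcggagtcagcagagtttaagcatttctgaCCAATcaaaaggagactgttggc
Samhd1, chr2:157135097-157135246, minus strand: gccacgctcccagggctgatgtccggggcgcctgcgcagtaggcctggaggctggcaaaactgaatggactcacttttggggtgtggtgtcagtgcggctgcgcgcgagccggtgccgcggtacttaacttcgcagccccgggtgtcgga
None of the 4 motifs occurred in the Samhd1 stretch, which says only that these letters are not in this window. A match is a description of the sequence and not a measured binding site.

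Most of the 37 genes were higher in leukemic marrow. With limma's moderated test on log2(signal + 16) and Benjamini-Hochberg adjustment over all tested genes, 28 of the 37 were called higher at an adjusted p under 0.05, where 27.5% of all tested genes were. Another 3, Samhd1, Dck and Ctps2, were called lower, where 15.9% of all tested genes were, and 6 did not pass. In either direction 31 passed, where 43.4% of all tested genes did. The median log2 fold change of the 37 was 1.95, against 0.28 over all tested genes. All 28 were at least 2-fold higher, as 24.0% of all tested genes were, and 6 were at least 8-fold higher, as 4.54% were. The arrays of the groups did not overlap in 33 of the 37, where 74.2% of all tested genes did not overlap. Among the 37, 15 lay above the 90th percentile of all log2 fold changes, which was 2.18. Scaled to the hybridization controls, 18 were called higher and 8 lower, with a median of 0.64, which then lay 1.59 above the median of all tested genes. Without leukemic replicate 1 the median of the 37 was 2.04, and without leukemic replicate 2 it was 1.97, against 0.29 over all tested genes in each fit. In such a fit the lone array of a group is assumed to vary like the arrays of the other group, which alone supply the spread. Adjusted p-values of such fits given below rest on that assumption.

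**Figure D1:**
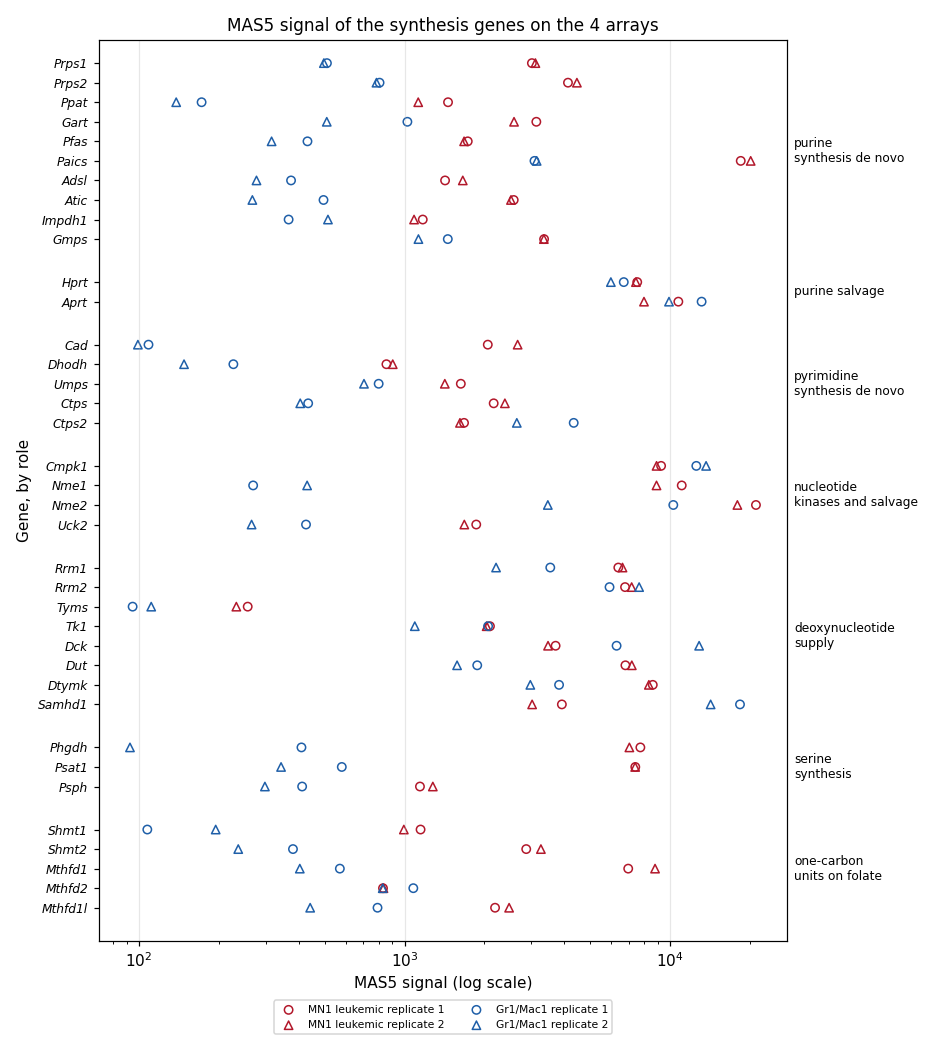
MAS5 signal (log scale, horizontal axis) of each of the 37 genes, grouped by role (vertical axis), with 1 symbol for each of the 4 arrays: red for leukemic, blue for mature, circle for replicate 1 and triangle for replicate 2. Red symbols lie to the right of blue ones for all 10 purine synthesis genes and for the serine genes, and overlap with blue in Aprt, Rrm2, Tk1 and Mthfd2.

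Purine synthesis de novo rose throughout in the leukemic arrays. All 10 measured genes of the route were called higher, with log2 fold changes from 1.35 to 2.93 and a median of 2.30, and all 10 stayed above 0 under each of the 4 scalings, with 7 of them called under the hybridization controls. Ppat, which commits phosphoribosyl pyrophosphate to the purine route, had signals of 1458 and 1126 in leukemia and 172.1 and 138.1 in the mature arrays. Its lowest leukemic signal stood far above its highest mature one, at a log2 fold change of 2.93 (SE 0.29, limma adjusted p = 7e-04). Atic, which closes the ring in the last steps, read 2577 and 2516 against 495.3 and 267.3. The leukemic arrays lay close together and the mature ones apart, at a log2 fold change of 2.75 (SE 0.32, limma adjusted p = 0.0012). Paics, a bifunctional enzyme of the middle of the route and the brightest probe set of this group, read 18450 and 20110 against 3085 and 3144. Replicates of each group nearly coincided, at a log2 fold change of 2.62 (SE 0.22, limma adjusted p = 0.00045).

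The enzymes that make phosphoribosyl pyrophosphate itself, Prps1 and Prps2, moved by nearly the same amount by their brightest probe sets. Prps1 read 3017 and 3110 in leukemia and 510.2 and 496.8 in the mature arrays, with no overlap and a log2 fold change of 2.57 (SE 0.22, limma adjusted p = 0.00048). Prps2 read 4125 and 4457 against 805.2 and 783.9, again with no overlap, at a log2 fold change of 2.41 (SE 0.22, limma adjusted p = 0.00055). Its dimmer kept probe sets rose less, by 1.41 and 1.64, and the latter was not called. Both genes lie on the X chromosome, and the part of sex in their values was not tested. Of the remaining steps, Adsl, which splits off fumarate, rose by 2.20, Pfas, which adds an amide nitrogen, by 2.16, and Gart, a trifunctional enzyme that uses folate-borne carbon, by 1.95. By the brightest probe sets the smallest values lay in the branch to guanine nucleotides, of which Impdh2 was not analysed. Gmps, GMP synthetase, rose by 1.38 and Impdh1, which oxidises IMP, by 1.35 (limma adjusted p = 0.004 and 0.0077). Other kept probe sets gave 1.70 and 2.01 for Gmps, and 0.22, 1.075 and 2.53 for Gart. Under the hybridization controls Gart, Gmps and Impdh1 were not called (log2 fold changes 0.64, 0.05 and 0.05), and Impdh1 missed the threshold without leukemic replicate 1 (adjusted p = 0.072) or replicate 2 (0.066).

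Purine salvage, which recycles free bases, did not pass the test in either of its 2 members, at the adjusted threshold or at an unadjusted limma p under 0.05. Hprt, on the X chromosome, rescues hypoxanthine and guanine. It read 7519 and 7435 in leukemia and 6691 and 5983 in the mature arrays. The groups did not overlap but lay close, at a log2 fold change of 0.24 (95% interval -0.29 to 0.77, limma adjusted p = 0.42), and its sign turned to -0.08 when every array was set to the same median. Aprt, which rescues adenine, read 10740 and 7973 against 13140 and 9904, with overlapping groups. The log2 fold change was -0.30 (95% interval -0.96 to 0.35, limma adjusted p = 0.42). Both were called lower under the hybridization controls, Hprt at -1.09 and Aprt at -1.63.

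Pyrimidine synthesis de novo rose in 4 of its 5 genes and fell in the fifth, with a median log2 fold change of 2.17, and of the 4 only Umps turned below 0 under any of the 4 scalings (-0.31 with the hybridization controls). Cad, the trifunctional enzyme that starts the route, read 2058 and 2666 in leukemia and 108.6 and 99.08 in the mature arrays. A log2 fold change of 4.30 (SE 0.28, limma adjusted p = 0.00019), a 19.7-fold difference, was the third largest of the 37 by the brightest probe sets. Dhodh, the mitochondrial dehydrogenase of the route, read 854.6 and 902.8 against 226.7 and 147.8, with no overlap and a log2 fold change of 2.17 (SE 0.31, limma adjusted p = 0.0022). Umps, which completes UMP, rose by 1.00 (limma adjusted p = 0.014). That call was lost at the same median (adjusted p = 0.15) and without leukemic replicate 1 (0.14) or 2 (0.089).

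The last pyrimidine step, from UTP to CTP, is made by a pair of genes that went opposite ways. Ctps read 2166 and 2387 in leukemia and 433.6 and 404.8 in the mature arrays, a log2 fold change of 2.40 (SE 0.23, limma adjusted p = 0.00067). Ctps2, on the X chromosome, read 1675 and 1617 against 4335 and 2647, a log2 fold change of -1.04 (SE 0.29, limma adjusted p = 0.025). Neither gene had overlapping groups, and the mature arrays differed more from each other for Ctps2. Its call was lost without leukemic replicate 1 (adjusted p = 0.10), without leukemic replicate 2 (0.13) and with no variance trend (0.061). Without mature replicate 1 its log2 fold change was -0.68.

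The kinases that carry nucleotides to the triphosphate, with the uridine salvage kinase, rose in 3 of 4 genes, and those 3 stayed above 0 under each scaling. Nme1, a nucleoside diphosphate kinase, read 11060 and 8888 in leukemia and 269.1 and 429.7 in the mature arrays. With no overlap, the log2 fold change was 4.80 (SE 0.29, limma adjusted p = 0.00016), a 27.9-fold difference. Uck2, which salvages uridine and cytidine, read 1862 and 1679 against 425.6 and 265.5, a log2 fold change of 2.34 (SE 0.30, limma adjusted p = 0.0015). Nme2, the neighbour and close sequence relative of Nme1, read 21050 and 17920 against 10280 and 3464, and its mature arrays lay far apart. Its log2 fold change was 1.70 (SE 0.48, limma adjusted p = 0.027). The Nme2 call was lost without leukemic replicate 1 (adjusted p = 0.092) or 2 (0.071), at the same median (0.066), with no variance trend (0.062) and under the hybridization controls (0.54), and its value was 0.92 without mature replicate 2. Since probes of near-identical relatives can take up each other's RNA, the split between Nme1 and Nme2 is uncertain. Cmpk1, the UMP and CMP kinase, read 9248 and 8891 against 12550 and 13660. Its groups did not overlap, at a log2 fold change of -0.53 (95% interval -1.07 to 0.01, limma adjusted p = 0.10), and under the hybridization controls it was called lower at -1.86.

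The supply of deoxynucleotides was mixed: 4 of 8 genes were called higher, 2 lower and 2 did not pass, with a median of 0.80, and under the hybridization controls Rrm1, Tyms and Dtymk turned to -0.11, -0.07 and -0.0035 while Dut stayed above 0. At the same median 2 of the 8 were called higher and 2 lower, where 18.3% and 18.5% of all tested genes were. The median of the 8 was 0.75 without leukemic replicate 1 and 0.83 without leukemic replicate 2. Dut, which removes dUTP, read 6788 and 7175 in leukemia and 1878 and 1577 in the mature arrays, with no overlap and a log2 fold change of 2.01 (SE 0.23, limma adjusted p = 0.001). Dtymk, thymidylate kinase, rose by 1.32 (limma adjusted p = 0.0047). Tyms, thymidylate synthase, rose by 1.13 at signals from 94.64 to 256.7, the dimmest of the group (limma adjusted p = 0.037). The Tyms call was lost under 9 of the 17 alternatives, with adjusted p-values up to 0.87.

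Ribonucleotide reductase, which makes deoxynucleotides from ribonucleotides, showed a difference in its large subunit and none that passed in its small one. Rrm1 read 6382 and 6618 in leukemia and 3538 and 2211 in the mature arrays, a log2 fold change of 1.21 (SE 0.28, limma adjusted p = 0.013). Its call was lost without leukemic replicate 1 (adjusted p = 0.060) or 2 (0.078) and at the same median (0.10). Rrm2 read 6766 and 7165 against 5914 and 7645, so the mature arrays lay on both sides of the leukemic ones. Its log2 fold change was 0.05 (95% interval -0.52 to 0.62, limma adjusted p = 0.89), -0.27 at the same median and -1.28, called lower, under the hybridization controls. Tk1, the thymidine kinase of dividing cells, read 2097 and 2038 against 2063 and 1093, with mature replicate 1 between the leukemic arrays. Its log2 fold change was 0.46 (95% interval -0.32 to 1.23, limma adjusted p = 0.30), 0.91 and called higher without mature replicate 1 (0.021), and -0.86 under the hybridization controls.

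Both genes of this group that fell act at its edges. Samhd1, which breaks down deoxynucleoside triphosphates, read 3912 and 3023 in leukemia and 18330 and 14210 in the mature arrays. Its log2 fold change of -2.23 (SE 0.26, limma adjusted p = 0.0012) was the lowest of the 37 and kept its sign and call under each alternative that tested it. Dck, which salvages deoxycytidine and is the kinase that activates cytarabine, read 3705 and 3470 against 6287 and 12860. The leukemic arrays agreed and the mature ones lay far apart, at a log2 fold change of -1.32 (SE 0.35, limma adjusted p = 0.022). The Dck call was lost without leukemic replicate 1 (adjusted p = 0.069) or 2 (0.096), with no variance trend (0.054) and after quantile normalization (0.05), and its value was -0.81 without mature replicate 2.

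**Figure D2:**
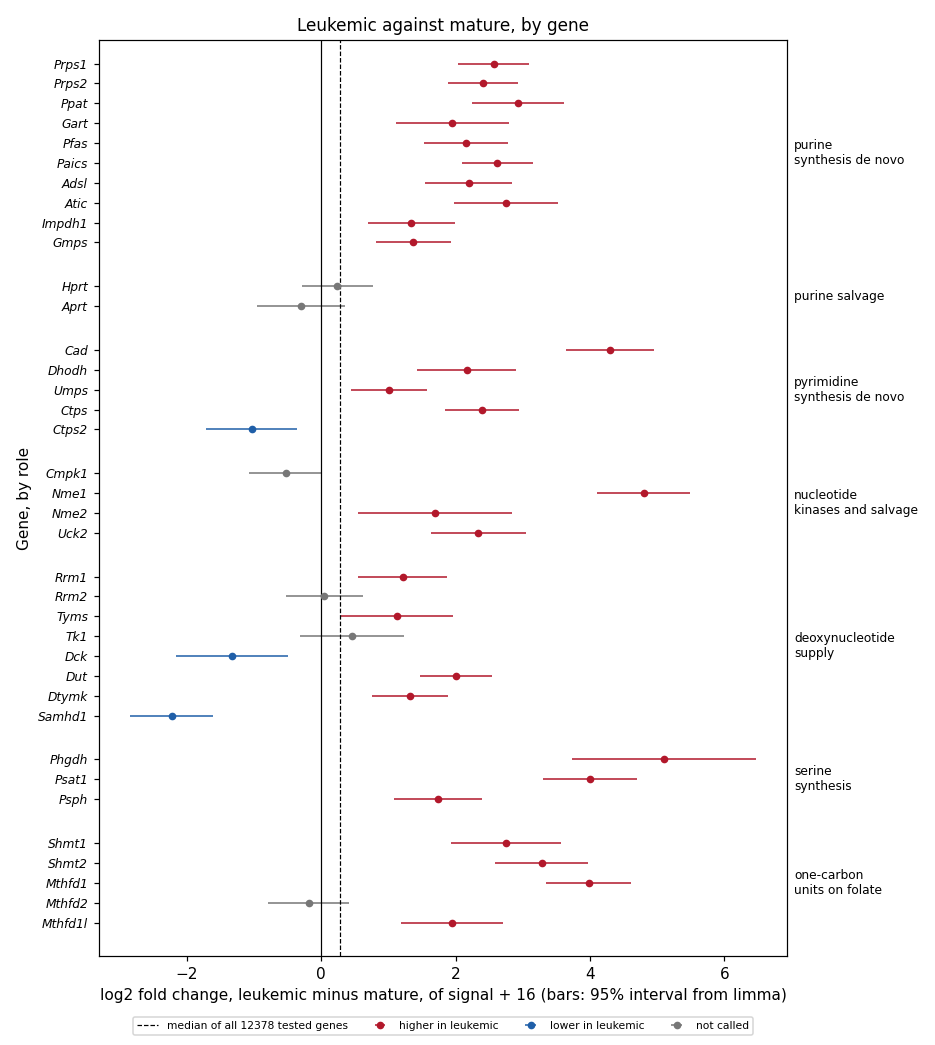
Log2 fold change, leukemic minus mature, of log2(signal + 16) for the 37 genes (horizontal axis), grouped by role (vertical axis), with 95% intervals from limma's moderated fit. Phgdh at 5.10 and Nme1 at 4.80 lie highest and Samhd1 at -2.23 lowest, and under a scaling to the hybridization controls 7 of the points, those of Hprt, Umps, Rrm1, Rrm2, Tyms, Tk1 and Dtymk, change sign.

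Serine synthesis held the largest difference of the 37 by the brightest probe sets, and all 3 of its genes rose, with a median log2 fold change of 4.00 and all 3 above 0 under each scaling. Phgdh, which takes 3-phosphoglycerate out of glycolysis, read 7727 and 7024 in leukemia and 409.1 and 92.5 in the mature arrays. The mature signals differed widely from each other and still lay far below the leukemic ones, at a log2 fold change of 5.10 (SE 0.58, limma adjusted p = 0.001). Over the mean of its probe sets Phgdh rose by 4.12, less than Mthfd1 at 4.73, and all its probe sets are of a kind that can match several transcripts. Psat1, the transaminase of the next step, read 7394 and 7386 against 580.4 and 342.8. The leukemic arrays nearly coincided, at a log2 fold change of 4.00 (SE 0.29, limma adjusted p = 0.00029). Psph, the phosphatase that releases serine, read 1143 and 1278 against 411.5 and 298, a log2 fold change of 1.74 (SE 0.28, limma adjusted p = 0.003). Only Psph lost its call under the hybridization controls, at 0.45 (adjusted p = 0.20). Both probe sets of Psat1 are also of a kind that can match several transcripts. Without such probe sets Psph alone of the 3 genes was tested, at a log2 fold change of 1.74.

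The transfer of serine's carbon to folate rose in 4 of 5 genes, with a median of 2.75, and those 4 stayed above 0 under each scaling. Shmt2, the mitochondrial enzyme that splits serine to glycine, read 2872 and 3262 in leukemia and 380.1 and 236.5 in the mature arrays, a log2 fold change of 3.28 (SE 0.29, limma adjusted p = 0.00053). Shmt1, its cytosolic counterpart, read 1149 and 994 against 107.5 and 194.5, a log2 fold change of 2.75 (SE 0.34, limma adjusted p = 0.0015). Both had clearly separate groups. Mthfd1, the cytosolic trifunctional enzyme that loads and reduces one-carbon folates, read 6954 and 8776 against 570.7 and 403.3. At a log2 fold change of 3.98 (SE 0.27, limma adjusted p = 0.00022) it rose most of this group. Mthfd1l, the mitochondrial enzyme that releases formate, read 2192 and 2476 against 791.1 and 441.2, a log2 fold change of 1.95 (SE 0.32, limma adjusted p = 0.0033), which was not called under the hybridization controls (0.64, adjusted p = 0.13).

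Mthfd2, the mitochondrial dehydrogenase that precedes Mthfd1l, was the exception. It read 829.6 and 833 in leukemia and 1079 and 827.7 in the mature arrays, so mature replicate 2 lay just under the leukemic arrays and mature replicate 1 above them. Its log2 fold change was -0.18 (95% interval -0.78 to 0.42, limma adjusted p = 0.60). Its second kept probe set gave -0.04. The value was 0.0062 without mature replicate 1 and -1.49, called lower, under the hybridization controls.

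Pairs of related genes were set against each other as log2 ratios of their brightest probe sets within each array. In such a ratio a linear scaling of the array cancels except for the 16 added to each signal. Only a change of the ratio can be read, since the levels of 2 probe sets are not comparable. The exact permutation test, two-sided, has a smallest possible p of 0.33 at this group size, so no pair could pass. Ctps over Ctps2 was 0.37 and 0.56 in leukemia and -3.28 and -2.66 in the mature arrays, a difference of 3.43 (exact p = 0.33, adjusted over 7 pairs 0.39). Nme1 over Nme2 was -0.93 and -1.01 against -5.18 and -2.97, a difference of 3.10, or 1.996 without mature replicate 1 and 4.21 without mature replicate 2. Neither of these ratios overlapped between the groups.

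In the folate pathway, Mthfd1 over Mthfd1l was 1.66 and 1.82 in leukemia and -0.46 and -0.13 in the mature arrays, a difference of 2.03. Mthfd2 over Mthfd1l, neighbouring steps in mitochondria, was -1.39 and -1.55 against 0.44 and 0.88, a difference of -2.13. Neither ratio overlapped between the groups: of Mthfd1 and Mthfd1l, which both rose, the cytosolic gene had the larger fold change. Shmt1 over Shmt2 was -1.31 and -1.70 against -1.68 and -0.26, a difference of -0.53 with overlapping groups (exact p = 0.67). Rrm1 over Rrm2 was -0.08 and -0.11 against -0.74 and -1.78, a difference of 1.16, or 1.68 without mature replicate 1 and 0.64 without mature replicate 2. Prps1 over Prps2 was -0.45 and -0.52 against -0.64 and -0.64, a difference of 0.16. The exact p of each of these pairs other than Shmt1 over Shmt2 was 0.33, the smallest possible.

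**Figure D3:**
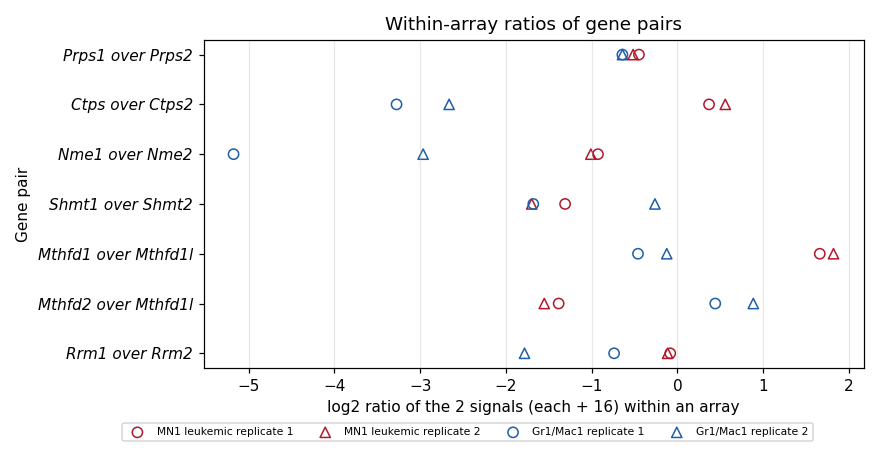
Log2 ratio of the signals of 7 gene pairs (horizontal axis: log2 of the first gene's signal over the second's, each + 16, within an array; vertical axis: pair), with 1 point for each of the 2 leukemic (red) and 2 mature (blue) arrays. The groups lie apart by 3.43 for Ctps over Ctps2 and by 0.16 for Prps1 over Prps2, and overlap for Shmt1 over Shmt2.

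Several probe sets existed for many of the genes and mostly told the same direction. Of the 83 kept probe sets of the 37 genes, 58 were called higher and 7 lower, and 18 were not called. Among all 22405 probe sets tested in this way, 23.1% were called higher and 13.8% lower. Among the 26 genes with several kept probe sets, 25 had all of them on 1 side of 0, and the exception was Rrm2, at -0.29 to 0.39 with none called. The size differed more: Phgdh ran from 2.57 to 5.37, Gart from 0.22 to 2.53, Shmt2 from 1.34 to 3.28, Nme1 from 3.01 to 4.80, Mthfd1 from 3.98 to 5.20 and Samhd1 from -2.23 to -0.77. A probe set shared by Tyms and its pseudogene read 2532 and 2888 in leukemia and 1364 and 916.3 in the mature arrays, a log2 difference of 1.26, beside the much dimmer set of Tyms alone. Probe sets shared by Phgdh and a gene model read higher in leukemia by 5.24 and 3.07.

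Within the mature group, replicate 1 read above replicate 2 in 29 of the 37 genes, where it did in 52.1% of all tested genes. Replicate 1 of the leukemic group read above its replicate 2 in 22 of the 37, where it did in 49.4% of all tested genes. The median log2 signal of the 37 was 11.57 in both leukemic arrays, 9.66 in mature replicate 1 and 9.04 in mature replicate 2. Without mature replicate 1 the median log2 fold change of the 37 was accordingly 2.37, and without mature replicate 2 it was 1.58.

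**Figure D4:**
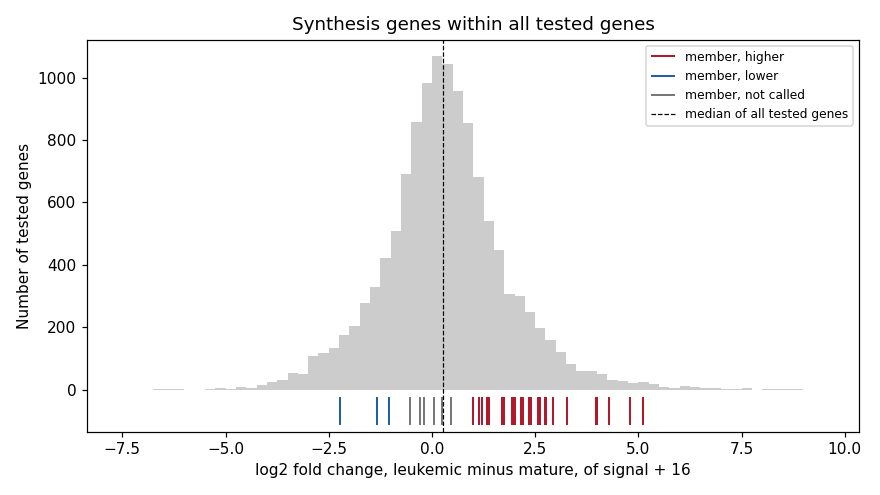
Histogram of log2 fold changes, leukemic minus mature, of log2(signal + 16) (horizontal axis) over all 12378 tested genes (vertical axis: number of genes), with the 37 synthesis genes as ticks under it, coloured by call. The median of the 37 is 1.95 and that of all tested genes 0.28, and 15 of the 37 lie above 2.18, the 90th percentile of all tested genes.

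Genes next to these pathways were counted from lists of other enzymes and regulators, with the same test, under which 27.5% of all tested genes were called higher and 15.9% lower. Of 21 tested genes that salvage, interconvert or break down purines, 10 were called higher and 5 lower, with a median of 0.86. Among them Ak4, a mitochondrial adenylate kinase, rose by 3.28, Mtap, which recycles methylthioadenosine, by 3.22, and Nme4, a mitochondrial diphosphate kinase, by 3.09. Xdh, which makes uric acid, fell by 3.08, Adssl1, of AMP synthesis, by 2.19, and Gda, guanine deaminase, by 1.86. Of 19 genes of pyrimidine and deoxynucleotide salvage and breakdown, 8 were called higher and 4 lower, with a median of 0.12. Dctd, which deaminates dCMP, rose by 3.59, Nt5c3b, a nucleotidase, by 3.39, and Slc29a2, a nucleoside transporter, by 2.70, while Upp1, uridine phosphorylase, fell by 3.43, Tk2, mitochondrial thymidine kinase, by 1.52, and Cmpk2, a mitochondrial kinase, by 1.45. Among the named genes of breakdown, Xdh, Gda and Upp1 were lower and Nt5c3b was higher. Without leukemic replicate 2 the median was 0.52 for the first list and 0.19 for the second. Under the hybridization controls the first list had 3 higher and 9 lower and the second 4 higher and 11 lower. In that scaling 8.75% of all tested genes were called higher and 48.0% lower. Nme4 was 1.98 without mature replicate 2, Ak4 was 1.75 without probe sets that can match several transcripts, and Slc29a2, at mature signals of 5.308 and 5.237, ran from 1.43 to 4.30 with pseudocounts of 64 and 1. Nme4, Slc29a2 and Tk2 missed the threshold without leukemic replicate 2 (adjusted p = 0.061, 0.062 and 0.074), and Nme4 also did under the hybridization controls (0.063).

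Of 17 tested genes of the folate cycle, glycine cleavage and the methionine cycle, 10 were called higher and 1 lower, with a median of 1.53. Gcsh, a carrier protein of glycine cleavage, read 8301 and 8464 in leukemia and 709 and 402.3 in the mature arrays, a log2 fold change of 3.93 (limma adjusted p = 0.00034). Slc19a1, the reduced folate carrier that also takes up methotrexate, read 1503 and 1367 against 134.9 and 56.39, a log2 fold change of 3.79 (limma adjusted p = 0.00081). Mtrr, which reactivates methionine synthase, rose by 3.16, and Ggh, which removes glutamates from folate, fell by 2.20. Without leukemic replicate 2 the median of the list was 1.52. Under the hybridization controls 6 were called higher and 3 lower, where 8.75% and 48.0% of all tested genes were.

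With the scaling as deposited, the ATF4 gene list, the known amino acid response, had more genes called higher than lower. Of its 18 tested genes 9 were called higher and 2 lower, with a median of 0.87. Slc7a5, an amino acid transporter, rose by 4.40, Aldh18a1, of proline synthesis, by 3.78, and Ddit4, a stress-induced brake on mTOR signalling, by 1.76. Chac1, which degrades glutathione, fell by 1.87, and Atf4 itself read 3219 and 3217 in leukemia and 6603 and 5039 in the mature arrays, a log2 fold change of -0.84 (limma adjusted p = 0.027). At the same median 5 were called higher and 3 lower, where 18.3% and 18.5% of all tested genes were. Under the hybridization controls 2 were called higher and 6 lower, where 8.75% and 48.0% of all tested genes were. The median of the list was 0.95 without leukemic replicate 2. Asns, asparagine synthetase, did not pass, at 0.16 (limma adjusted p = 0.62), and was called lower under the hybridization controls, at -1.16 (0.0059). The Atf4 call was lost after quantile normalization (0.051), over the mean of its probe sets (0.26), with no variance trend (0.067) and without leukemic replicate 1 (0.13) or 2 (0.14). Chac1 was not called without leukemic replicate 2 (0.086), mature replicate 1 (0.061) or mature replicate 2 (0.053), and Ddit4 was not called without leukemic replicate 1 (0.065) or under the hybridization controls (0.25).

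S phase and proliferation genes rose in 14 of 23, with 1 lower and a median of 1.10, which is below that of the 37 synthesis genes. Mcm2, Cdc6 and Mcm3, of the licensing of replication, rose by 1.995, 1.77 and 1.60. E2f2 fell by 1.68. The proliferation markers Mki67 and Top2a did not pass, at 0.21 and 0.24 (limma adjusted p = 0.52 and 0.45): Mki67 read 15600 and 13550 in leukemia and 13750 and 11420 in the mature arrays. With the hybridization controls both were called lower (-1.12 and -1.08, adjusted p = 0.0083 and 0.0079). In that scaling the median of the list was -0.22, 8 of the 23 were called lower, and the count called higher by limma went from 14 to 0 (1 at an unadjusted p under 0.05), where 8.75% of all tested genes were higher and 48.0% lower. Mcm2, Cdc6 and Mcm3 missed the threshold there (adjusted p = 0.065, 0.16 and 0.35). At the same median 7 of the list were called higher, where 18.3% of all tested genes were. The median of the list was 1.10 without leukemic replicate 1 and 1.03 without leukemic replicate 2.

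Of 7 tested regulators, 3 were called higher and 2 lower, and Mycl, another MYC family member, was too dim to test, at 5.922 and 44.11 in leukemia against 7.211 and 4.802. Mycn, a MYC family member, read 13960 and 20230 in leukemia and 56.71 and 37.52 in the mature arrays, a log2 fold change of 8.08 (SE 0.30, limma adjusted p = 8.4e-05), and 4.05 over the mean of its probe sets. Myc read 4334 and 4014 against 189 and 130.3, a log2 fold change of 4.60 (SE 0.27, limma adjusted p = 0.00015). Both lay far apart from the mature arrays. Max, the partner of both proteins, read 312.2 and 389.3 against 2202 and 1940 and was called lower, at -2.51 (limma adjusted p = 0.00073). Tfap4, a factor downstream of MYC, rose by 2.09 (adjusted p = 0.022), with the call lost without leukemic replicate 1 (0.098) or 2 (0.12) and under the hybridization controls (0.16), and with 1.27 at a pseudocount of 64. E2f1 at -0.37 and E2f3 at 0.65 did not pass (adjusted p = 0.39 and 0.071). Under the hybridization controls E2f1 was called lower at -1.64 and E2f3 was at -0.65. The median of the tested regulators was 0.65, and 0.66 without leukemic replicate 2.

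The labelled cell types were set against marker genes, whose levels moved with the groups. Stem and progenitor markers such as Kit, Cd34 and Flt3 were called higher in leukemia in 10 of 10 genes, with summed signals of 43686 and 52602 in leukemia and 1098.2 and 1470 in the mature arrays. Erythroid markers were higher in 9 of 10 tested genes, summed at 97040 and 122730 against 10740 and 5730.2, and Klf1, a defining erythroid factor, read 9157 and 11470 against 54.29 and 101.4. Markers of megakaryocytes, mast cells and basophils were higher in 5 of 8, summed at 47837 and 60855 against 1302.8 and 1142.8. Within these lists Alas2, of heme synthesis, did not pass, at -0.82, and was called lower under the hybridization controls (-2.14). The 1 probe set that carried the alpha globin symbol Hba-a1 alone was too dim to test, at 31.28 and 22.93 against 24.21 and 78.9. Probe sets naming several genes were left out, so it does not show whether alpha globin RNA was low. Of 13 listed erythroid genes, 11 had a probe set with their symbol alone. The platelet genes Gp9, Pf4 and Gp1bb did not pass either, so the 5 genes called were Itga2b and the mast cell and basophil genes Cpa3, Fcer1a, Ms4a2 and Mcpt8.

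Mature neutrophil markers were lower in leukemia in 8 of 14. The other 6, all of granule or cytosolic neutrophil proteins, did not pass, and one of them, Camp, read 60230 and 33020 in the leukemic against 50470 and 38000 in the mature arrays. Under the hybridization controls Camp was called lower, at -1.30 (limma adjusted p = 0.023). Over all 14 markers the sums were 456530 and 263060 against 470760 and 381730, which overlapped between the groups. Itgam, which encodes CD11b of the gate, read 584.2 and 306 against 4288 and 4407. Monocyte and macrophage markers were lower in 8 of 9, summed at 16213 and 11739 against 97416 and 61300. B and plasma cell markers were lower in 3 of 8, namely Igha, Jchain and Xbp1, and 5 did not pass. Igha read 10.77 and 8.589 against 5805 and 1023. The list summed to 8509.3 and 6948.9 against 19361 and 13027. Xbp1 made up the largest part of each sum, at 7601 and 6246 against 12000 and 11210. T and NK cell markers were called in 0 of 2 tested genes (limma unadjusted p = 0.0939 for Cd8a and 0.0495 for Gzma), and 5 more of that list were too dim to test, with list sums of 411.03 and 368.45 against 244.57 and 220.27. The part of these cell types in the differences of the synthesis genes was not tested.

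**Figure D5:**
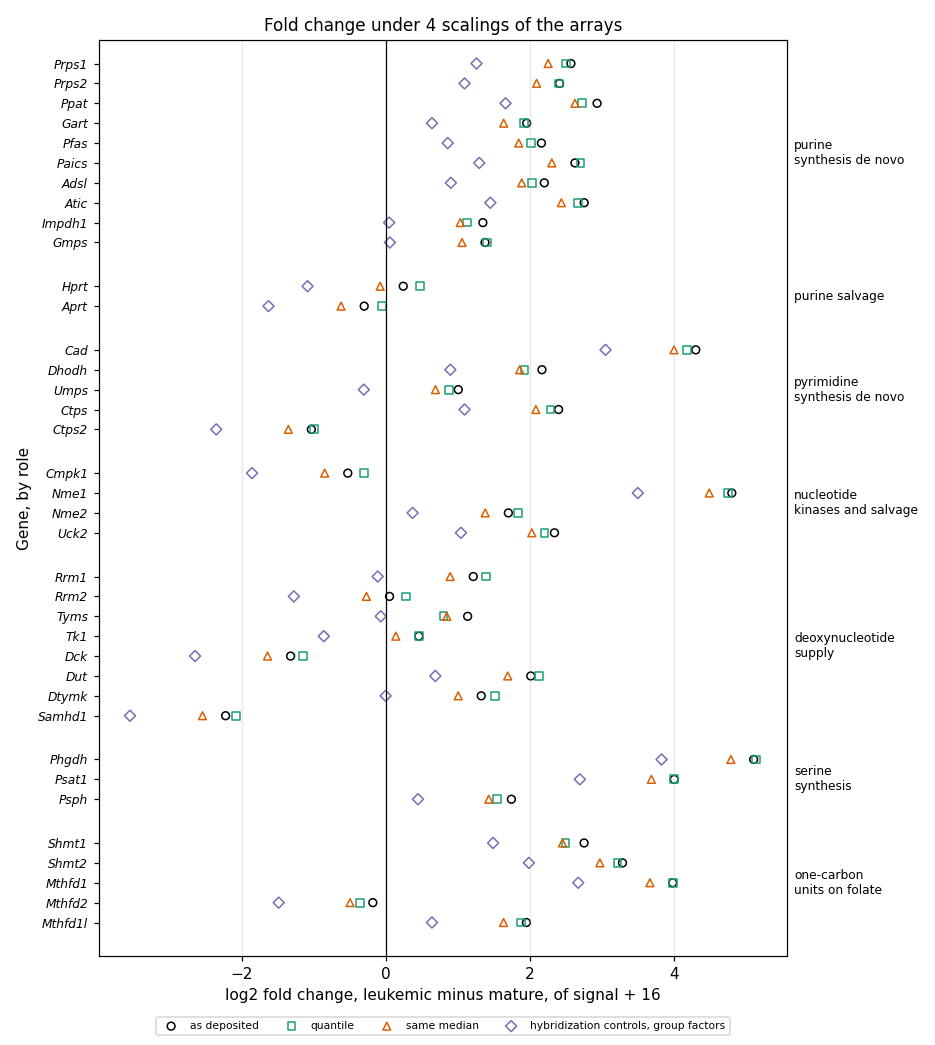
Log2 fold change of log2(signal + 16) of the 37 genes (horizontal axis) by role (vertical axis) under 4 scalings of the arrays: as deposited, quantile normalized, every array at the same median, and each group scaled to its hybridization controls. The last scaling lies to the left of the others for each gene, moves the median of the 37 from 1.95 to 0.64, and puts Hprt, Umps, Rrm1, Rrm2, Tyms, Tk1 and Dtymk below 0.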

How the data were processed

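Deposited values were MAS5 signals, a linear intensity per probe set computed in GCOS 1.3.0 according to the submitters' processing notes. Its settings, scaling target and detection calls were not given in the sources used here. All 4 arrays entered every test, and their small number limits the precision; no counts lie behind an intensity. Control probe sets (64 of 45101) and probe sets with several or no symbols were left out, as were the dimmest 40% by mean signal over the arrays. Symbols are those of GEO's platform annotation, some of which may be outdated. The brightest probe set on average stood for its gene. Leukemic and mature arrays were compared on log2(signal + 16), a scale that understates changes of dim genes, with limma 3.58.1 in R 4.3.3 (lmFit, then eBayes with trend; two-sided p-values, Benjamini-Hochberg adjustment over 12378 genes, threshold 0.05). The fit was tested on simulated data. Python 3.11.15 with matplotlib 3.10.9 made the figures.

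The members, lists and tests were chosen with earlier results of these data known. All measured members are named. Signals of all arrays are printed for the 3 largest changes of each role, every member lower or not called, and the gene pairs. Each neighbour list names up to 3 called genes in each direction with the largest fold, and all regulators. Asns, Mki67, Top2a and the marker genes named were chosen after their values were seen. The alternatives changed the pseudocount (1 or 64), the filter, the scaling (quantile, same median, hybridization controls), the probe set per gene, the variance model, a replicate block, and each array left out in turn.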

Additional observations from a re-analysis of the deposited data

How the results depend on the processing

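The main limit is scaling, since the hybridization controls were brighter in the leukemic arrays and no setting tells which scaling is right. With 2 arrays a group, leaving out a leukemic array raised the median SE from 0.33 to 0.48. Leaving out a mature array lowered it to 0.29. With every array at the same median, the synthesis genes' median log2 fold change was 1.63 and 2268 of all tested genes were called higher. Under the hybridization controls, 18 members were called higher and 8 lower with a median of 0.64, 17 neighbour genes higher and 38 lower, and 1083 of all tested genes higher and 5944 lower. With no variance trend 1 member was called lower. Leaving out each array in turn gave 24 to 31 members called, 23 to 28 higher and 1 to 3 lower, a median of 1.58 to 2.37, and 1.26 to 2.14 above the median of all tested genes. It gave 37 to 70 neighbour genes called, 28 to 57 higher and 9 to 13 lower, and 2575 to 5441 of all tested genes called, 1544 to 3571 higher and 1031 to 1908 lower; the lowest of these counts came without leukemic replicate 2. Signs turned for Hprt (-0.080 at the same median, -1.09 under the hybridization controls), Rrm2 (-0.27 and -1.28 in the same settings, -0.29 without probe sets that can match several transcripts, and -0.13 to 0.23 as each array was left out, the lowest without mature replicate 1), Mthfd2 (-0.37 to 0.0062 as each array was left out, the highest without mature replicate 1) and the ratio of Shmt1 over Shmt2 (-1.24 to 0.18, the highest without mature replicate 2). Under the hybridization controls they also turned for Umps (-0.31), Rrm1 (-0.11), Tyms (-0.072), Tk1 (-0.86), Dtymk (-0.0035) and E2f3 (-0.65). The cause was not tested. Pseudocounts of 1 and 64, the 60% filter, a robust trend and each probe set tested alone changed no call of a member; the last gives no count over genes, and 29 members remain without probe sets that can match several transcripts. Nothing in the labels pairs the arrays by replicate number. The correlation of same-numbered deviations was -0.03 over 12378 genes, which with 2 arrays a group cannot exclude a pairing. With the replicate block 27 members were called higher and 3 lower, and among members it changed the call of Tyms alone.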
